A study of Mus musculus with 64 samples.

Results

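Metallothioneins and the proteins that move zinc across membranes were followed here by 6 genes: Mt1 and Mt2 (metallothionein 1 and 2), Mtf1 (metal regulatory transcription factor 1), the zinc exporter Slc30a1 (also called ZnT1) and the importers Slc39a1 (ZIP1) and Slc39a14 (ZIP14). They were taken by gene symbol from 55487 genes counted in 64 mRNA sequencing libraries of murine bone marrow-derived macrophages (BMMs), and all 6 of them were among the 14537 genes with enough counts to be tested. BMMs from C57BL/6 mice of 8-12 weeks, either wild-type (Ahr+/+; females of the substrain C57BL/6JRj) or lacking the aryl hydrocarbon receptor (AhR; Ahr-/-, a germline knockout backcrossed to that substrain), were grown with medium conditioned by L929 fibroblasts as the source of macrophage colony-stimulating factor. They were exposed for 6 h to the vehicle DMSO, to 1 µM benzo[a]pyrene (BaP) or to 10 µM indole-3-carbinol (I3C), which are a xenobiotic and a dietary AhR ligand, and then activated for 3 h or 20 h with heat-killed Salmonella Enteritidis (hk S.E.). Cells with DMSO and without hk S.E. were the unactivated controls, the ligands were only given together with hk S.E., and all 16 groups of genotype, time, ligand and activation had 4 libraries from the bone marrow of 4 mice per genotype. The labels number the replicates but do not tie a number to a mouse, so that the p-values measure the spread between libraries, part of which may be technical. The design asks how the 6 genes differed after activation, between genotypes, between ligands and vehicle, and between time points.

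Metallothioneins are small cysteine-rich proteins that bind zinc, copper and cadmium in the cytosol and hold zinc in an exchangeable form. When free zinc rises, MTF1 binds it, enters the nucleus and attaches to metal response elements in front of the metallothionein genes and of Slc30a1, so that zinc is bound and exported. SLC39 (ZIP) proteins bring zinc into the cytosol, and ZIP14 also carries iron and manganese. Macrophages are known to redistribute zinc and other metals after contact with bacteria, which withholds metals from microbes or exposes microbes to toxic amounts of them.

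The proximal promoters of the metallothionein genes and of Slc30a1 are shown since metal response elements are the sites by which MTF1 acts. Each sequence is the 250 bases before the RefSeq transcription start on the plus strand of GRCm38.p6, the release of which mm10, the build used by the authors, is the UCSC name. Capitals mark the metal response element cores TGCACNC and TGCGCNC found on either strand, N being any base. Mt1 lies at chr8:94178839-94179088, Mt2 at chr8:94172368-94172617 and Slc30a1 at chr1:191906531-191906780.
Mt1: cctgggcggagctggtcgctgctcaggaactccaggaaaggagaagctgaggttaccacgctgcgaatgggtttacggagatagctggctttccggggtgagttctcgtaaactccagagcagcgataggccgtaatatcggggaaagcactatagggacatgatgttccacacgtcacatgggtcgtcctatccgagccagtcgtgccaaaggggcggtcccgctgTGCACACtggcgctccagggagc
Mt2: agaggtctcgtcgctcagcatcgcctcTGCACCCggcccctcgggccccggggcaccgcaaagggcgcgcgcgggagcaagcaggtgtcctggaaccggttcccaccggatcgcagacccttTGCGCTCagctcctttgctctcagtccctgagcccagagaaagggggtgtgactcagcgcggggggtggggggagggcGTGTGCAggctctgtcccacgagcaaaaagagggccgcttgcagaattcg
Slc30a1: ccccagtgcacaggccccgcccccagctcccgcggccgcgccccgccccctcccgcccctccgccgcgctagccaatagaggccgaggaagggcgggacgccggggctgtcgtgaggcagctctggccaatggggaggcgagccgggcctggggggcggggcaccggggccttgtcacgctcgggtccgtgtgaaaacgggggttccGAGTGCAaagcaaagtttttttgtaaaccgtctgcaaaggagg

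Over the whole window of 300 bases, which adds the first 50 bases after the start, Mt2 held 4 metal response element cores, Mt1 held 3 and Slc30a1 held 2. Of 32851 RefSeq promoter windows of the same length, 25.7% held at least 1 such core, 7.11% at least 2, 1.97% at least 3 and 0.517% at least 4. No core was found in the windows of Mtf1 (chr4:124802299-124802548 before the start) and Slc39a1 (chr3:90247942-90248191). Slc39a14, on the minus strand of chromosome 14 (70303469 to 70351425), had no window in the table. The core of the aryl hydrocarbon response element, GCGTG, occurred 2 times in the window of Mt2 and 1 time each in those of Mt1 and Slc30a1, and in 32.4% of all windows. In Mt2, the GCGTG at positions -52 to -48 overlapped the metal core at -50 to -44. TGACNNNGC, the core of the antioxidant response element, occurred once each in Mt2, Slc30a1 and Slc39a1 and in 12.4% of all windows, and in Slc30a1 it shared bases with GCGTG. Mt1 and Mt2 are neighbours on chromosome 8, with gene bodies annotated at 94179082 to 94180327 and 94172664 to 94173568. These matches are a description of letters in the windows, and no binding was measured. The windows rest on 1 RefSeq start per gene, and sequence beyond them was not searched. Of the 3 cores of Mt1, 1 lay before this start and the others at positions 3 to 9 and 21 to 27. Whether this is the start used in BMMs was not tested, so the counts do not compare whole promoters.

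The libraries held 12152496 to 50644601 counts on genes, apart from 1 library of unactivated Ahr+/+ BMMs at 20 h (replicate 4) with 233047331. The lowest count of any of the 6 genes in any library was 323. Counting error came to 1.26% to 5.05% of the level of a gene in a group, and the spread between its 4 libraries to 2.09% to 39.8% (coefficient of variation). The spread of Mtf1 was 3.08% to 10.3%. Counting error was more than 50% of it in 12 of 16 groups, against 0 to 3 groups for the other 5 genes. Levels are given as counts per 1000000 (CPM) on library sizes scaled by the trimmed mean of M values (TMM), log2 fold changes with the standard error (SE), and a gene was called at an adjusted p below 0.01 in the quasi-likelihood test of edgeR, with p-values adjusted over all 14537 genes after Benjamini and Hochberg. All 8 macrophage markers were expressed (summed CPM 17349 to 32713), whereas erythroid markers had no counts and the summed CPM of T and NK cell and of mast cell markers stayed at or below 0.247 and 0.211. Neutrophil markers summed to 12.7 to 273 CPM, dendritic cell markers to 0.0950 to 39.6, fibroblast markers to 0.0736 to 8.35 and B cell markers to 0.362 to 6.27. Ahr-/- libraries still held Ahr counts (6.63 ± 2.01 CPM against 3.17 ± 1.54 in Ahr+/+, unactivated at 3 h, mean ± SD, n = 4), and as counts were summed over the whole gene, including exons outside any deletion, they do not check the genotype. The AhR target Ahrr differed by 3.36 between BaP and DMSO at 3 h in Ahr+/+ BMMs (log2 fold change, adjusted p = 7.13e-14) and by -0.33 in Ahr-/- BMMs (adjusted p = 0.859).

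In activated Ahr-/- BMMs, libraries of replicates 1 and 2 stood apart from those of replicates 3 and 4. Both libraries of the first pair were above, or both below, those of the second pair in all 6 activated Ahr-/- groups for 23.1% of the 14537 genes (3351), against 0.475% (69) in the 6 activated Ahr+/+ groups. Mt1 and Mt2 were higher in replicates 1 and 2 in 6 of 6 such groups and Slc39a1 in 5 of 6, whereas Slc30a1 was lower in 5 of 6. Fibroblast markers moved with this split, with a summed level of 0.188 to 1.58 CPM in Ahr-/- replicates 1 and 2 and of 2.69 to 8.35 CPM in replicates 3 and 4, and so did macrophage markers in activated Ahr-/- BMMs at 20 h (25860 to 30321 against 18737 to 19888 CPM; 17349 to 22319 CPM in activated Ahr+/+ BMMs at that time). Lyz2 made up most of the macrophage sum (mean 16182 CPM in activated Ahr-/- BMMs with DMSO at 20 h), so this sum mostly follows 1 gene. The part of either marker set in the differences below was not tested. The activation and time calls of the 6 genes in Ahr-/- BMMs are therefore also given within each pair. The pairs were formed after this split had been seen, so p-values within a pair are descriptive. Library identifiers fall into series whose meaning the labels do not give. All Ahr-/- libraries at 20 h were of a single series. No activated Ahr-/- library at 3 h and no activated Ahr+/+ library at 20 h was of it. Within these groups the series cannot be told apart from time or genotype. With it as a covariate, for the 6 genes only, no call changed. No activated group held both this series and another, so the covariate does not check its effect in activated BMMs.

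**Figure D1:**
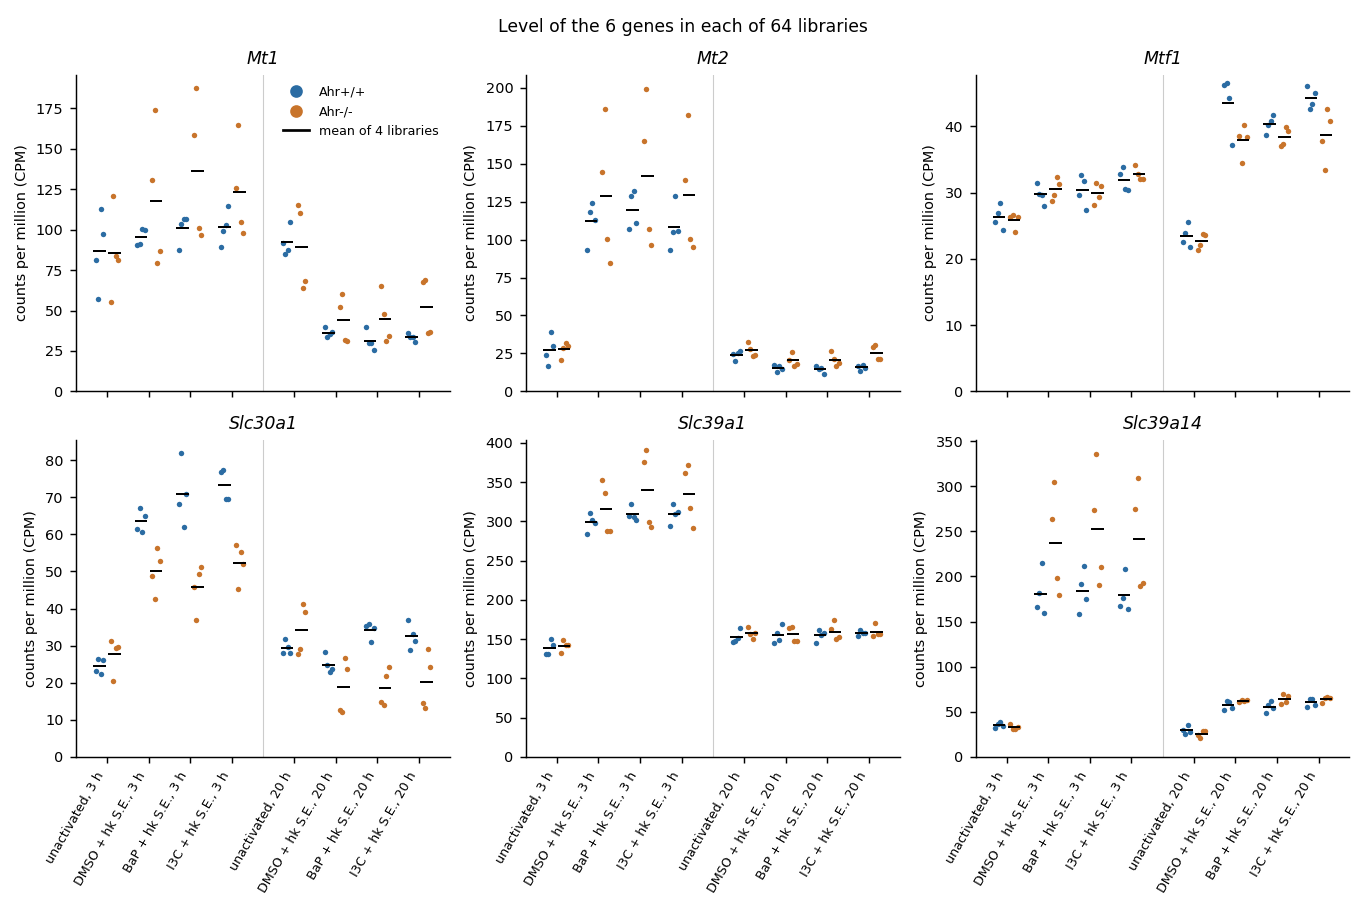
Level of the 6 genes (CPM, y axes) in each of the 64 libraries, by treatment and time (x axes), with Ahr+/+ in blue, Ahr-/- in orange and the mean of 4 libraries as a black line. At 3 h, Mt2, Slc30a1, Slc39a1 and Slc39a14 were higher in every activated library than in any unactivated library, and at 20 h the means of both metallothioneins were lower and those of Mtf1 higher in the activated groups than in the unactivated group of the same genotype.

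At 3 h after hk S.E., Mt2 and the 3 transporters rose in both genotypes, whereas Mt1, the neighbour of Mt2, did not pass the test. Of the 6 genes, 4 were called higher and 0 lower in Ahr+/+ BMMs, where 24.2% of all tested genes were called higher and 32.3% lower. Among Ahr-/- BMMs 5 were called higher and 0 lower, against 25.5% and 31.8% of all genes. The median log2 fold change of the 6 genes was 1.24 in Ahr+/+ and 1.01 in Ahr-/- BMMs, and that of all tested genes was -0.10 and -0.08. In bulk RNA of a culture, a change in the share of cells and a change in the RNA of each cell cannot be told apart. Neutrophil and precursor markers moved with activation at 3 h: all 5 tested of 8 were called higher in both genotypes (median log2 fold change 2.64 in Ahr+/+ and 2.54 in Ahr-/- BMMs; 4 of 5 with plain total counts), and their summed level lay between 15.7 and 43.9 CPM in unactivated and between 111 and 261 CPM in activated Ahr+/+ libraries, and between 20.7 and 25.0 CPM and between 115 and 118 CPM in Ahr-/- libraries. S100a8, S100a9 and Ngp made up most of this, while Ly6g, Elane and Mpo were too low to be tested, with means of at most 0.111 CPM in these 4 groups. At 20 h, 2 of the 5 were called higher and 1 (Ahr+/+) or 2 (Ahr-/-) lower. Of the 8 macrophage markers, 2 were called higher and 3 lower at 3 h in either genotype, and 2 and 5 (Ahr+/+) and 1 and 5 (Ahr-/-) at 20 h. Dendritic cell markers, of which 3 of 5 were tested, summed to 0.0950 to 1.53 CPM in all unactivated libraries, to 1.09 to 3.87 CPM after hk S.E. with DMSO at 3 h and to 3.82 to 39.6 CPM at 20 h. Most of the dendritic cell sum at 20 h was Ccr7, with means of 26.0 CPM (Ahr+/+) and 6.51 CPM (Ahr-/-) after hk S.E. Flt3, Zbtb46, Xcr1 and Siglech had means of at most 0.696 CPM in these groups. Zbtb46 had a lower mean with than without hk S.E. in Ahr-/- BMMs at 20 h (0.110 against 0.297 CPM, not called). The part of all these markers in the values of the 6 genes was not tested.

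These values are relative to the TMM scaling. With plain total counts as library sizes, an alternative chosen after seeing the data, the median of all genes shifted by -0.67 at 3 h in both genotypes and by -0.37 (Ahr+/+) and -0.31 (Ahr-/-) at 20 h. The calls then split into 1806 higher and 8598 lower genes in Ahr+/+ BMMs at 3 h, instead of 3525 and 4697, and into 1856 and 8572 in Ahr-/- BMMs, instead of 3702 and 4628. At 20 h the plain totals gave 2655 higher and 6370 lower genes instead of 4347 and 4173 (Ahr+/+), and 2575 and 5607 instead of 4115 and 3783 (Ahr-/-). Where this scaling turns the direction of 1 of the 6 genes or ends its call, it is said beside the value.

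Mt2 was found at 23.8, 16.8, 38.9 and 29.6 CPM in the unactivated Ahr+/+ libraries at 3 h (replicates 1 to 4) and at 92.9, 118, 124 and 113 CPM after hk S.E. The lowest activated library was more than the highest unactivated one, and Mt2 rose 4.12-fold (log2 fold change 2.04 ± 0.22 SE, adjusted p = 7.54e-12). Mt2 in Ahr-/- BMMs went from 20.8, 28.3, 32.1 and 29.6 CPM to 145, 186, 100.0 and 84.4 CPM, again without overlap, a 4.65-fold rise (2.22 ± 0.22, adjusted p = 5.39e-13). The activated Ahr-/- libraries spread widely, with replicates 1 and 2 above the others. Within replicates 1 and 2 the log2 fold change was 2.77, and within replicates 3 and 4 it was 1.58, both called.

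Mt1 overlapped between the groups. It was found at 81.2, 57.1, 113 and 97.1 CPM in unactivated and at 90.7, 91.3, 101 and 99.9 CPM in activated Ahr+/+ BMMs at 3 h (log2 fold change 0.14 ± 0.25, adjusted p = 0.648). The Ahr-/- libraries were at 55.4, 121, 83.6 and 81.1 CPM without and 131, 174, 79.3 and 87.0 CPM with hk S.E. (0.47 ± 0.25, adjusted p = 0.0925). Here the replicates decided the call, since Mt1 passed the test within Ahr-/- replicates 1 and 2 (0.80, adjusted p = 0.00193) and had a log2 fold change of 0.01 within replicates 3 and 4 (adjusted p = 0.963). With plain totals its estimates were negative (-0.53 and -0.20) and were not called.

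Slc39a14, an importer of zinc, iron and manganese, had the largest fold change among the 6 genes at 3 h. Its level was 31.7, 36.5, 38.4 and 34.2 CPM in unactivated Ahr+/+ BMMs and 166, 182, 215 and 160 CPM after hk S.E., a 5.13-fold rise (2.36 ± 0.15, adjusted p = 1.59e-20). Unactivated Ahr-/- BMMs held 36.3, 31.2, 30.8 and 33.4 CPM and activated ones 264, 305, 198 and 179 CPM, a 7.19-fold rise (2.85 ± 0.15, adjusted p = 1.08e-23). No activated library came near an unactivated one. The rise was 3.09 within Ahr-/- replicates 1 and 2 and 2.56 within replicates 3 and 4 on the log2 scale.

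Slc39a1, a zinc importer of the plasma membrane, rose with little spread between libraries. Ahr+/+ BMMs went from 131, 131, 150 and 142 CPM to 285, 311, 302 and 298 CPM at 3 h (2.15-fold, 1.11 ± 0.08, adjusted p = 6.39e-19). Ahr-/- BMMs went from 132, 149, 143 and 143 CPM to 352, 336, 287 and 288 CPM (2.23-fold, 1.16 ± 0.08, adjusted p = 1.03e-19). The groups did not overlap in either genotype, and the log2 fold change was 1.31 within Ahr-/- replicates 1 and 2 and 1.01 within replicates 3 and 4. With plain totals the values were 0.43 and 0.48 and both were still called.

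The exporter Slc30a1 rose together with the importers at 3 h. It was found at 23.2, 26.4, 22.4 and 26.1 CPM in unactivated and at 61.5, 67.1, 60.7 and 64.9 CPM in activated Ahr+/+ BMMs (2.59-fold, 1.37 ± 0.19, adjusted p = 5.03e-09). The values in Ahr-/- BMMs were 31.3, 20.4, 29.4 and 29.6 CPM before and 48.9, 42.6, 56.3 and 52.8 CPM after hk S.E. (1.81-fold, 0.86 ± 0.18, adjusted p = 5.59e-05). All activated libraries were above all unactivated ones, and the log2 fold change was 0.83 within Ahr-/- replicates 1 and 2 and 0.89 within replicates 3 and 4. With plain totals the Ahr-/- value was 0.18 and was not called, while that of Ahr+/+ was 0.70 and was.

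Mtf1, the transcription factor, moved least at 3 h and its direction depended on the scaling. Its level was 25.6, 26.9, 28.4 and 24.3 CPM in unactivated and 31.5, 29.8, 29.6 and 28.0 CPM in activated Ahr+/+ BMMs, which was not called (0.18 ± 0.07, adjusted p = 0.0231). For Ahr-/- BMMs it went from 26.3, 26.6, 24.1 and 26.3 CPM to 28.8, 29.6, 32.3 and 31.2 CPM, a called rise of 1.18-fold with TMM (0.24 ± 0.07, adjusted p = 0.00196) that was a called fall with plain totals (-0.43; -0.50 in Ahr+/+ BMMs). The call was lost within Ahr-/- replicates 1 and 2 (0.16, adjusted p = 0.18) and held within replicates 3 and 4 (0.34, adjusted p = 0.0015). Counting error alone was close to the spread between libraries here, at 4.68% against 4.80% in activated Ahr+/+ BMMs.

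**Figure D2:**
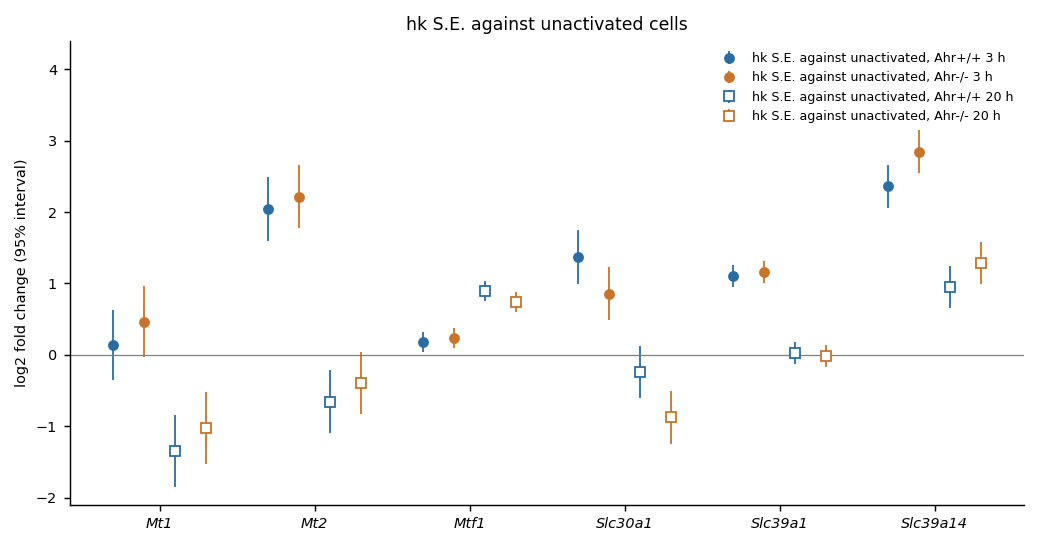
Log2 fold change of the 6 genes (y axis, with 95% interval) in hk S.E.-activated against unactivated BMMs after DMSO, for Ahr+/+ (blue) and Ahr-/- (orange) at 3 h (filled circles) and 20 h (open squares). Mt2, Slc30a1, Slc39a1 and Slc39a14 lie above 0 at 3 h, and Mt1 lies below 0 and Mtf1 and Slc39a14 above 0 at 20 h.

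After 20 h the picture was a different one: the metallothioneins were at or below their unactivated level, Mtf1 was above it, and Slc39a14 was the only importer among the 6 genes still called higher with TMM. In Ahr+/+ BMMs 2 genes were called higher (Mtf1 and Slc39a14) and 2 lower (Mt1 and Mt2), where 29.9% of all genes were called higher and 28.7% lower. Among Ahr-/- BMMs 2 were called higher (Mtf1 and Slc39a14) and 2 lower (Mt1 and Slc30a1), against 28.3% and 26.0% of all genes. The median log2 fold change of the 6 genes was -0.11 and -0.21 in the 2 genotypes, and that of all tested genes -0.00 and 0.02.

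Mt1 was found at 91.8, 85.1, 87.3 and 105 CPM in unactivated Ahr+/+ BMMs at 20 h and at 39.9, 33.4, 35.5 and 36.6 CPM in activated ones, 2.54-fold lower (-1.34 ± 0.25, adjusted p = 4.94e-06). The Ahr-/- libraries went from 115, 110, 63.7 and 67.9 CPM to 52.3, 60.3, 32.0 and 31.1 CPM, 2.03-fold lower (-1.02 ± 0.25, adjusted p = 0.000319). The groups did not overlap in either genotype, and within Ahr-/- replicates 1 and 2 the log2 fold change was -1.01 and within replicates 3 and 4 it was -1.06. Mt2 fell less, from 24.7, 19.9, 25.2 and 26.9 CPM to 17.5, 12.6, 16.9 and 14.5 CPM in Ahr+/+ BMMs (1.57-fold lower, -0.65 ± 0.22, adjusted p = 0.00721). Without 1 of 5 single libraries of these 2 groups (unactivated replicates 1, 3 and 4, activated replicates 2 and 4) this call was lost in turn, with log2 fold changes of -0.57 to -0.74 over all 8 and adjusted p up to 0.0328. Mt2 in Ahr-/- BMMs was at 32.4, 28.0, 23.4 and 24.2 CPM without and at 20.5, 26.0, 17.0 and 18.3 CPM with hk S.E., which was not called with TMM (-0.40 ± 0.22, adjusted p = 0.103), nor within either pair of replicates (-0.40 and -0.43), and was with plain totals (-0.71).

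Mtf1 rose from 22.5, 23.8, 25.6 and 21.7 CPM to 46.2, 46.5, 44.2 and 37.2 CPM in Ahr+/+ BMMs at 20 h (1.86-fold, 0.90 ± 0.07, adjusted p = 3.24e-17). The corresponding values in Ahr-/- BMMs were 21.4, 22.1, 23.8 and 23.5 CPM and 38.6, 34.5, 40.3 and 38.5 CPM (1.67-fold, 0.74 ± 0.07, adjusted p = 4.72e-14). No libraries overlapped, the log2 fold change was 0.74 within Ahr-/- replicates 1 and 2 and 0.73 within replicates 3 and 4, and the rise was kept with plain totals (0.53 and 0.43). The 6 activated groups at 20 h had the highest means of Mtf1 and the lowest means of Mt1 among the 16 groups.

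Slc39a14 remained above the unactivated level but far below that at 3 h. It went from 29.4, 25.9, 35.2 and 27.9 CPM to 51.8, 61.7, 61.3 and 53.9 CPM in Ahr+/+ BMMs (1.93-fold, 0.95 ± 0.14, adjusted p = 6.17e-08). The Ahr-/- values of 23.8, 20.7, 28.4 and 28.9 CPM became 60.4, 63.5, 62.0 and 63.5 CPM (2.44-fold, 1.29 ± 0.14, adjusted p = 2.59e-11; 1.46 within replicates 1 and 2 and 1.13 within replicates 3 and 4). Slc39a1 was back at 144 to 169 CPM in all 8 activated libraries of both genotypes, with 146 to 165 CPM in the unactivated ones (0.02 ± 0.08 and -0.01 ± 0.08, adjusted p = 0.806 and 0.879), although plain totals gave called values of -0.35 and -0.32.

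Slc30a1 at 20 h differed in its call between the genotypes. It was at 28.1, 31.8, 29.7 and 28.1 CPM in unactivated and at 28.2, 24.7, 22.9 and 23.6 CPM in activated Ahr+/+ BMMs, which was not called (-0.24 ± 0.18, adjusted p = 0.238; called at -0.61 with plain totals). In Ahr-/- BMMs it fell from 27.8, 29.1, 41.3 and 38.9 CPM to 12.6, 12.1, 26.6 and 23.6 CPM (1.83-fold lower, -0.87 ± 0.18, adjusted p = 4.59e-05). Replicates 1 and 2 were the low ones in both Ahr-/- groups, and the log2 fold change was -1.21 within them and -0.68 within replicates 3 and 4. The test of the difference between the genotypes is given below.

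Compared between the time points, all 6 genes changed in activated BMMs of both genotypes, 5 of them falling and Mtf1 rising from 3 h to 20 h. In Ahr+/+ BMMs 33.0% of all genes were called higher and 26.4% lower at 20 h, and in Ahr-/- BMMs 31.7% and 24.3%; with plain totals, 6453 and 2688 genes were called higher and lower instead of 4799 and 3844 in Ahr+/+ BMMs, and 6814 and 2406 instead of 4606 and 3531 in Ahr-/- BMMs. Mt2 had the largest drop, from 112 ± 13.5 to 15.4 ± 2.26 CPM in Ahr+/+ BMMs (mean ± SD, n = 4; 7.27-fold lower, adjusted p = 2.21e-16) and from 129 ± 45.9 to 20.5 ± 3.95 CPM in Ahr-/- BMMs (6.31-fold lower). Slc39a14 was 3.16-fold and 3.79-fold lower, Mt1 2.63-fold and 2.68-fold, Slc30a1 2.56-fold and 2.67-fold and Slc39a1 1.93-fold and 2.02-fold lower in Ahr+/+ and Ahr-/- BMMs. Mtf1 was 1.46-fold (adjusted p = 5.88e-10) and 1.24-fold (adjusted p = 6.67e-05) higher. In the edgeR fit of the compared groups alone, the rise of Mtf1 in Ahr-/- BMMs was not called (0.25, adjusted p = 0.0302). The direction of none of these 12 differences changed with plain totals. All 6 in Ahr-/- BMMs were also called within each pair of replicates, with log2 fold changes of -2.85 and -2.38 for Mt2, of -1.91 and -1.12 for Slc30a1 and of 0.30 and 0.31 for Mtf1 within replicates 1 and 2 and within replicates 3 and 4.

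Time alone, in unactivated BMMs, gave log2 fold changes from -0.37 (Slc39a14, Ahr-/-) to 0.31 (Slc30a1, Ahr-/-). None of 12 values was called, where 6.07% of all genes were called in Ahr+/+ and 6.98% in Ahr-/- BMMs. At an unadjusted p below 0.05 there were 4 of 12, against 24.3% over all genes and both comparisons. Within pairs of Ahr-/- replicates, Slc39a14 was called lower in replicates 1 and 2 (-0.59, adjusted p = 0.00605 in edgeR). Slc30a1 was called higher in replicates 3 and 4 (0.44, adjusted p = 0.00432). The response to hk S.E. itself differed between 3 h and 20 h for all 6 genes in both genotypes, tested as the interaction of activation and time. Of all genes, 26.5% had a higher and 21.3% a lower response at 20 h in Ahr+/+ and 25.2% and 19.4% in Ahr-/- BMMs (with plain totals 5406 and 2253 genes instead of 3849 and 3101, and 5693 and 1974 instead of 3665 and 2826). On the log2 scale, the response at 20 h minus that at 3 h in Ahr+/+ BMMs was -2.70 for Mt2 (adjusted p = 7.95e-11), -1.48 for Mt1 (adjusted p = 0.000273) and 0.72 for Mtf1.

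Mt2 and Mt1 lie next to each other and code for closely related proteins, but their transcripts did not move in step. The ratio of Mt2 to Mt1 counts within a library does not depend on the scaling between libraries. It was not divided by transcript length and so compares conditions, not the 2 genes. In unactivated Ahr+/+ BMMs at 3 h the ratio was 0.293, 0.294, 0.345 and 0.305, and after hk S.E. 1.02, 1.30, 1.23 and 1.13. In Ahr-/- BMMs it was 0.375, 0.234, 0.383 and 0.366 without and 1.11, 1.07, 1.26 and 0.971 with hk S.E. At 20 h the ratio was 0.269, 0.234, 0.289 and 0.258 in unactivated and 0.439, 0.378, 0.478 and 0.398 in activated Ahr+/+ BMMs. For Ahr-/- BMMs at 20 h it was 0.281, 0.254, 0.367 and 0.356 without and 0.392, 0.431, 0.532 and 0.589 with hk S.E. The ratio was thus higher in every activated library than in any unactivated one of the same genotype and time. The mean log2 ratio differed by 1.92 (3 h) and 0.69 (20 h) in Ahr+/+ BMMs and by 1.72 (3 h) and 0.63 (20 h) in Ahr-/- BMMs. Each had p = 0.0286 in a two-sided exact permutation test (adjusted p = 0.0286 over the 4 comparisons), the smallest that 4 against 4 libraries can give, and this ratio was chosen after its values had been seen. The order, with each activated ratio above each unactivated one, was also seen at both times within Ahr-/- replicates 1 and 2 and within replicates 3 and 4. No test of the ratio was run within these pairs. Since the 2 genes are similar in sequence and reads with more than 1 alignment were not counted, some of their reads may be missing.

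**Figure D3:**
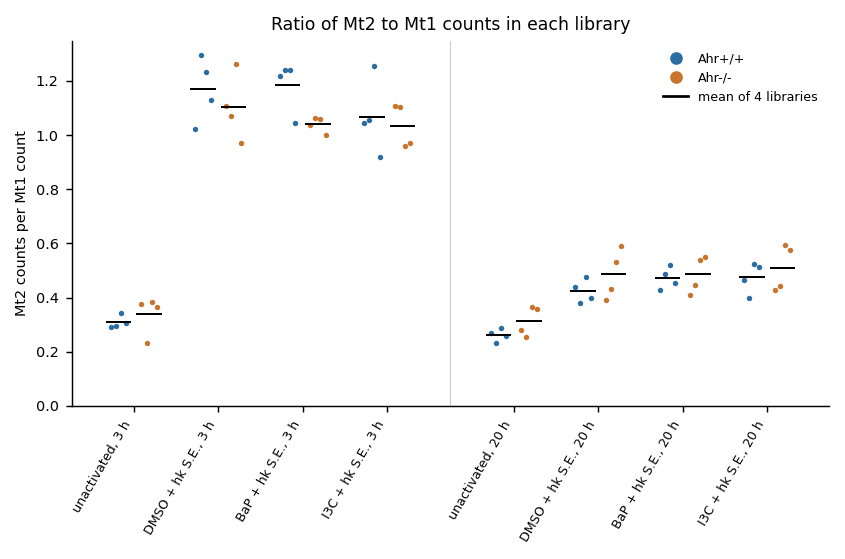
Number of Mt2 counts per Mt1 count (y axis) in each of the 64 libraries by treatment and time (x axis), with Ahr+/+ in blue, Ahr-/- in orange and the mean of 4 libraries as a black line. The ratio was 0.234 to 0.383 in all unactivated libraries, 0.919 to 1.30 in all activated libraries at 3 h and 0.378 to 0.592 in all activated libraries at 20 h.

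Between Ahr-/- and Ahr+/+ BMMs none of the 24 values of the 6 genes was called. Of all genes 1.21% were called in unactivated and 2.83% in activated BMMs at 3 h, and 0.702% and 12.5% at 20 h. In activated BMMs at 20 h, the genotypes also differed in the series of library identifiers. At an unadjusted p below 0.05 there were 3 of 24 values, against 18.4% over all genes and the 4 comparisons, and neither DESeq2 nor limma on the authors' transformed values called any. Of these 3, Slc39a14 was at 166, 182, 215 and 160 CPM in activated Ahr+/+ and at 264, 305, 198 and 179 CPM in activated Ahr-/- BMMs at 3 h (log2 fold change 0.39 ± 0.14, adjusted p = 0.0914). Mtf1 was at 46.2, 46.5, 44.2 and 37.2 CPM in activated Ahr+/+ and 38.6, 34.5, 40.3 and 38.5 CPM in activated Ahr-/- BMMs at 20 h (-0.20 ± 0.07, adjusted p = 0.031). Without Ahr+/+ replicate 4, the low library of its group, this difference was called (-0.27, adjusted p = 0.00395). The third was Slc30a1 in activated BMMs at 20 h, with 28.2, 24.7, 22.9 and 23.6 CPM in Ahr+/+ and 12.6, 12.1, 26.6 and 23.6 CPM in Ahr-/- BMMs (-0.40 ± 0.18, adjusted p = 0.118). Only replicates 1 and 2 of Ahr-/- were below the Ahr+/+ libraries.

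For Slc30a1, the genotype difference rested on which Ahr-/- libraries were used. The pairs of Ahr-/- replicates were picked after their values had been seen, so the p-values with a pair alone are descriptive. With Ahr-/- replicates 1 and 2 alone, Slc30a1 was lower than in Ahr+/+ BMMs after activation at 20 h (adjusted p = 1.54e-07; 12.6 and 12.1 CPM) and at 3 h (-0.48, adjusted p = 0.00608), Slc39a14 was higher at 3 h (0.65, adjusted p = 0.000458) and Mt1 higher at 20 h (0.64, adjusted p = 0.00979). With replicates 3 and 4 alone, none of these 4 differences was called, and Slc30a1 was higher in unactivated Ahr-/- BMMs at 20 h instead (0.45, adjusted p = 0.000452). The difference in the activation response of Slc30a1 between the genotypes at 20 h was -0.63 ± 0.26 (95% interval -1.15 to -0.11, adjusted p = 0.128), with 4.41% of all genes called in this interaction. It was called with a replicate block within genotype (-0.66, adjusted p = 0.00349), with the replicate as a random effect (-0.68, adjusted p = 0.00455) and with Ahr-/- replicates 1 and 2 alone (-0.96, adjusted p = 0.000241), and was not with replicates 3 and 4 alone (-0.44, adjusted p = 0.0349). At 3 h, where 0.0138% of all genes were called, that of Slc30a1 was -0.52 ± 0.26 (adjusted p = 0.849) and that of Slc39a14 was 0.49 ± 0.20 (adjusted p = 0.661). For the 4 interactions of ligand and genotype the shares of all genes called were 0.0138% (BaP at 3 h), 0% (BaP at 20 h), 0% (I3C at 3 h) and 0% (I3C at 20 h). Without a block and with all libraries, none of the 36 values of the 6 genes in these 6 interactions with genotype was called, and 2 of 36 had an unadjusted p below 0.05, against 6.39% of all genes.

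Neither ligand gave a called difference from DMSO in any of 48 values of the 6 genes. With BaP, the share of all genes called was 0.0482% at 3 h and 0.234% at 20 h among Ahr+/+ BMMs and 0.0275% and 0.0138% among Ahr-/- BMMs. With I3C it was 0.131% and 0.509% among Ahr+/+ BMMs and 0.0206% and 0.206% among Ahr-/- BMMs. These shares depend on the fit, as a replicate block within genotype gave more called genes in each of the 8 comparisons. In Ahr+/+ BMMs at 20 h it called 271 instead of 34 genes with BaP and 147 instead of 74 with I3C. None of the 6 genes was called with the block either. Without the block, an unadjusted p below 0.05 was found for 2 of 48 values, against 5.27% over all genes and the 8 comparisons, and both were those of Slc30a1 in Ahr+/+ BMMs at 20 h. The 2 ligands share their DMSO controls, so these are not independent of each other.

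Slc30a1 in activated Ahr+/+ BMMs at 20 h was found at 28.2, 24.7, 22.9 and 23.6 CPM after DMSO, at 35.2, 35.9, 30.9 and 34.7 CPM after 1 µM BaP and at 36.9, 28.8, 33.0 and 31.2 CPM after 10 µM I3C. All libraries with a ligand were above all DMSO libraries, as was the case for 9.05% of all genes with BaP and 5.58% with I3C in either direction. The log2 fold changes were 0.46 ± 0.18 for BaP (95% interval 0.09 to 0.83, adjusted p = 0.312 in edgeR) and 0.39 ± 0.18 for I3C (0.02 to 0.76, adjusted p = 0.801). The corresponding differences in Ahr-/- BMMs were -0.00 and 0.11, and the interaction with genotype was 0.46 ± 0.26 for BaP and 0.27 ± 0.26 for I3C, neither of them called. At 3 h, Slc30a1 in Ahr+/+ BMMs was at 76.9, 77.4, 69.6 and 69.5 CPM with I3C and 68.2, 81.9, 62.0 and 71.0 CPM with BaP, against 61.5, 67.1, 60.7 and 64.9 CPM with DMSO (0.21 ± 0.18 and 0.15 ± 0.18).

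For the metallothioneins, the ligand groups followed their DMSO controls. At 3 h, Mt2 in Ahr+/+ BMMs was at 92.9, 118, 124 and 113 CPM with DMSO, at 107, 128, 132 and 111 CPM with BaP and at 93.0, 105, 129 and 105 CPM with I3C. For Ahr-/- BMMs the means were 129 ± 45.9, 142 ± 48.7 and 129 ± 40.3 CPM (± SD, n = 4), the high libraries being replicates 1 and 2 in each. Mt1 at 20 h was at 39.9, 33.4, 35.5 and 36.6 CPM with DMSO, at 39.7, 29.9, 29.7 and 25.5 CPM with BaP and at 36.0, 33.6, 33.8 and 30.7 CPM with I3C in Ahr+/+ BMMs, and at 43.9 ± 14.6, 44.6 ± 15.6 and 52.4 ± 18.3 CPM in Ahr-/- BMMs. All of these groups overlapped. Over both genes, both ligands and all groups, the 95% intervals of the log2 fold changes reached from -0.72 (Mt1, Ahr+/+ BMMs with BaP at 20 h) to 0.75 (Mt1 and Mt2, Ahr-/- BMMs with I3C at 20 h), so that differences within them were not detectable. Those of Mtf1 and Slc39a1 were narrower, from -0.24 to 0.25.

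BaP and I3C were compared directly in 24 pairs of values of the 6 genes, at their unequal doses of 1 µM and 10 µM, and none was called. Of all genes, 0.110% (3 h) and 0.282% (20 h) were called among Ahr+/+ and 0.0206% and 0.186% among Ahr-/- BMMs. At an unadjusted p below 0.05 there were 0 of 24, against 4.06% of all genes. The largest difference was that of Mt2 in Ahr-/- BMMs at 20 h, with 26.8, 21.4, 16.6 and 19.0 CPM after BaP and 29.0, 30.5, 21.4 and 21.3 CPM after I3C (-0.28 ± 0.22, 95% interval -0.72 to 0.15). For Mtf1 in Ahr+/+ BMMs at 20 h the interval was -0.27 to 0.00 around -0.13. An adjusted p that misses the threshold does not show that the 2 ligands act alike on these genes.

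**Figure D4:**
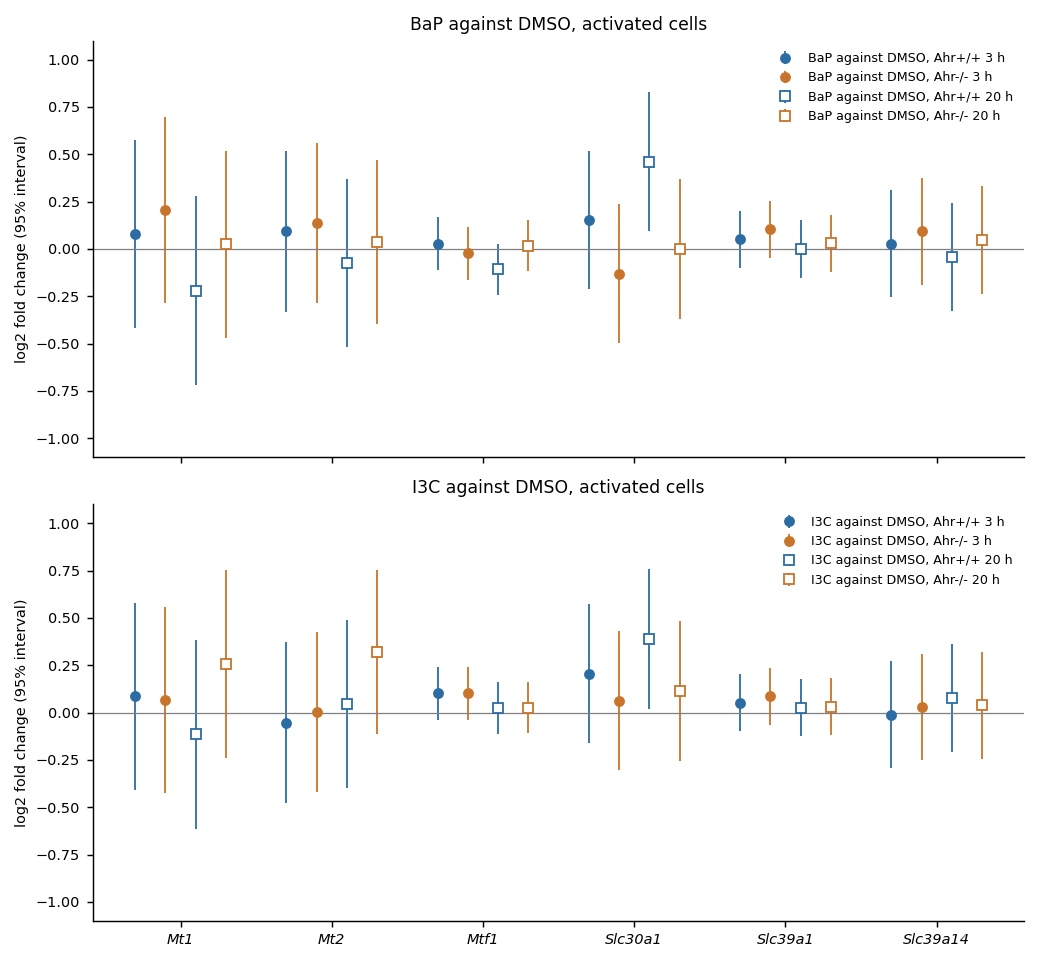
Log2 fold change of the 6 genes (y axes, with 95% interval) with BaP (upper panel) or I3C (lower panel) against DMSO in activated BMMs, for Ahr+/+ (blue) and Ahr-/- (orange) at 3 h (circles) and 20 h (open squares). The only intervals without 0 are those of Slc30a1 in Ahr+/+ BMMs at 20 h, 0.09 to 0.83 for BaP and 0.02 to 0.76 for I3C.

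Over all 64 libraries, Mt2 ranged from 11.6 to 199 CPM (17.2-fold), Slc39a14 from 20.7 to 336 CPM (16.2-fold), Mt1 from 25.5 to 188 CPM (7.36-fold), Slc30a1 from 12.1 to 81.9 CPM (6.77-fold), Slc39a1 from 131 to 391 CPM (2.98-fold) and Mtf1 from 21.4 to 46.5 CPM (2.18-fold). When the 16 groups were ordered by their mean, the libraries of neighbouring groups overlapped in 15 of 15 pairs for Mt1, in 14 of 15 for Mt2, Mtf1 and Slc39a1 and in 13 of 15 for Slc30a1 and Slc39a14. For Mt2 the gap lay between the 6 activated groups at 3 h and the other 10 groups.

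Across the 16 group means of log2 CPM, a description over groups that share donors and controls, Mt2 was most like Slc39a1 among the other 5 genes (Pearson's r = 0.961), then Slc39a14 (0.864), Mt1 (0.841) and Slc30a1 (0.828). Mtf1 ran opposite to Mt1 (-0.759). Among all tested genes, the 3 most like each of the 6 were Gm7964, Cited2 and Cd44 for Mt2 (0.993 to 0.996), Ilk, Zc3h4 and Scap for Mt1 (0.991 to 0.992), Hbs1l, Ero1l and Ric1 for Mtf1 (0.985 to 0.986), Adap2, Vrk2 and P2ry14 for Slc30a1 (0.984 to 0.988), a gene without a symbol, Snn and Ptprj for Slc39a1 (0.994 to 0.996) and Exoc3l4, Slc25a25 and Ccdc86 for Slc39a14 (0.994 to 0.995).

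The other zinc genes did not move as a block. Of 23 further genes (SLC30 and SLC39 transporters, the remaining metallothioneins and the zinc transporter gene Tmem163) 16 were tested, and hk S.E. raised 3 and lowered 4 of them in Ahr+/+ and raised 4 and lowered 5 in Ahr-/- BMMs at 3 h, where 24.2% and 32.3% of all tested genes were called higher and lower in Ahr+/+ and 25.5% and 31.8% in Ahr-/- BMMs. At 20 h, 4 were higher and 6 lower in Ahr+/+ (29.9% and 28.7% of all genes), and 5 and 5 in Ahr-/- BMMs (28.3% and 26.0%). Their median log2 fold change was -0.02 and 0.13 at 3 h and -0.01 and 0.08 at 20 h in Ahr+/+ and Ahr-/- BMMs. With plain totals 2 were higher and 11 lower in either genotype at 3 h, and 3 and 9 (Ahr+/+) and 5 and 6 (Ahr-/-) at 20 h, while no gene called with TMM in either metal list turned its direction. Slc30a4, a transporter that loads zinc into vesicles, rose at 3 h (1.80 ± 0.32 and 1.68 ± 0.32 in Ahr+/+ and Ahr-/-) and fell at 20 h (-1.19 ± 0.33 in Ahr+/+; adjusted p = 0.00132 and 0.00608). Slc30a6 rose (1.23 and 1.27 at 3 h), whereas Slc30a5, its relative in the secretory pathway, fell (-0.90 and -0.81). Slc30a7 was higher at 3 h in both genotypes (0.74 and 0.72), and Slc39a13 was called in Ahr-/- BMMs (0.94; 1.11 within replicates 1 and 2 and 0.69 within replicates 3 and 4) with a value of 0.53 in Ahr+/+ BMMs (adjusted p = 0.0109).

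Importers other than Slc39a1 and Slc39a14 were partly lower after activation. Slc39a8, coding for ZIP8, the closest relative of ZIP14, fell at 20 h (-1.87 ± 0.20 and -2.12 ± 0.21). Slc39a10, a plasma membrane importer, fell at 3 h (-0.76 and -0.67) and at 20 h (-1.53 and -1.30) in both genotypes. Slc39a7, which releases zinc from the endoplasmic reticulum, rose at 20 h (1.25 and 1.06). Tmem163 had 0 counts in all 8 activated libraries at 20 h against 1.47 ± 0.385 and 1.56 ± 0.894 CPM in unactivated BMMs, at least 14.5-fold and 16.8-fold lower (against a floor of 3 counts per library), and had fallen at 3 h in Ahr-/- BMMs (-1.52 ± 0.41), with a value of -1.17 ± 0.45 in Ahr+/+ BMMs that was not called. Between genotypes, 1 of the 16 genes was called, Slc39a4 in activated BMMs at 20 h (0.63 ± 0.16, adjusted p = 0.00238), where 12.5% of all genes were called. This call rested on Ahr-/- replicates 1 and 2 (0.95 with them alone, 0.23 and adjusted p = 0.172 with replicates 3 and 4 alone). With the ligands, Slc39a11 was lower with I3C than with DMSO in Ahr+/+ BMMs at 20 h (-0.64 ± 0.09, adjusted p = 3.28e-06) and higher with BaP than with I3C (0.49 ± 0.09, adjusted p = 0.000718), a gene named after its values were seen. In Ahr-/- BMMs at 20 h its mean was also lowest with I3C. It was 24.1 ± 3.34 CPM with DMSO, 19.3 ± 3.25 CPM with I3C and 25.1 ± 2.90 CPM with BaP (± SD, n = 4).

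A list of copper, iron and thiol genes included larger fold changes. Of its 18 genes 17 were tested, with 6 higher and 4 lower (3 h) and 11 higher and 6 lower (20 h) in Ahr+/+ BMMs, and 6 and 3 (3 h) and 10 and 5 (20 h) in Ahr-/- BMMs. The shares over all genes were, as above, 24.2% higher and 32.3% lower (3 h) and 29.9% and 28.7% (20 h) in Ahr+/+, and 25.5% and 31.8% (3 h) and 28.3% and 26.0% (20 h) in Ahr-/- BMMs. With plain totals the counts were 5 and 11 (3 h) and 7 and 6 (20 h) in Ahr+/+, and 5 and 10 (3 h) and 8 and 5 (20 h) in Ahr-/- BMMs. Their median log2 fold change was 0.11 and 0.16 at 3 h and 0.85 and 0.73 at 20 h. The cystine importer Slc7a11 rose by 3.26 and 3.63 at 3 h and by 6.30 and 6.27 at 20 h on the log2 scale, and Slc31a2, of the copper transporter family, by 2.35 and 2.44 and by 3.62 and 3.39. The iron exporter Slc40a1 (ferroportin) fell at 3 h (-2.66 and -2.59) and at 20 h (-4.42 and -4.24). Slc11a2, the divalent metal transporter DMT1, rose at 3 h (1.85 and 1.58), the copper importer Slc31a1 at 20 h (2.72 and 2.48), and the metalloreductase gene Steap3 fell at 20 h (-2.78 and -2.26). Steap4 had 0 counts in all unactivated libraries at 3 h and was at 0.845 and 0.441 CPM after hk S.E., at least 6.60-fold and 4.05-fold higher. Gclc, the catalytic subunit of the enzyme that limits glutathione synthesis, had a higher level in activated Ahr-/- BMMs at 20 h than in Ahr+/+ ones (0.58 ± 0.12, adjusted p = 0.000143), and was called with Ahr-/- replicates 1 and 2 alone (0.61) and with replicates 3 and 4 alone (0.56).

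**Figure D5:**
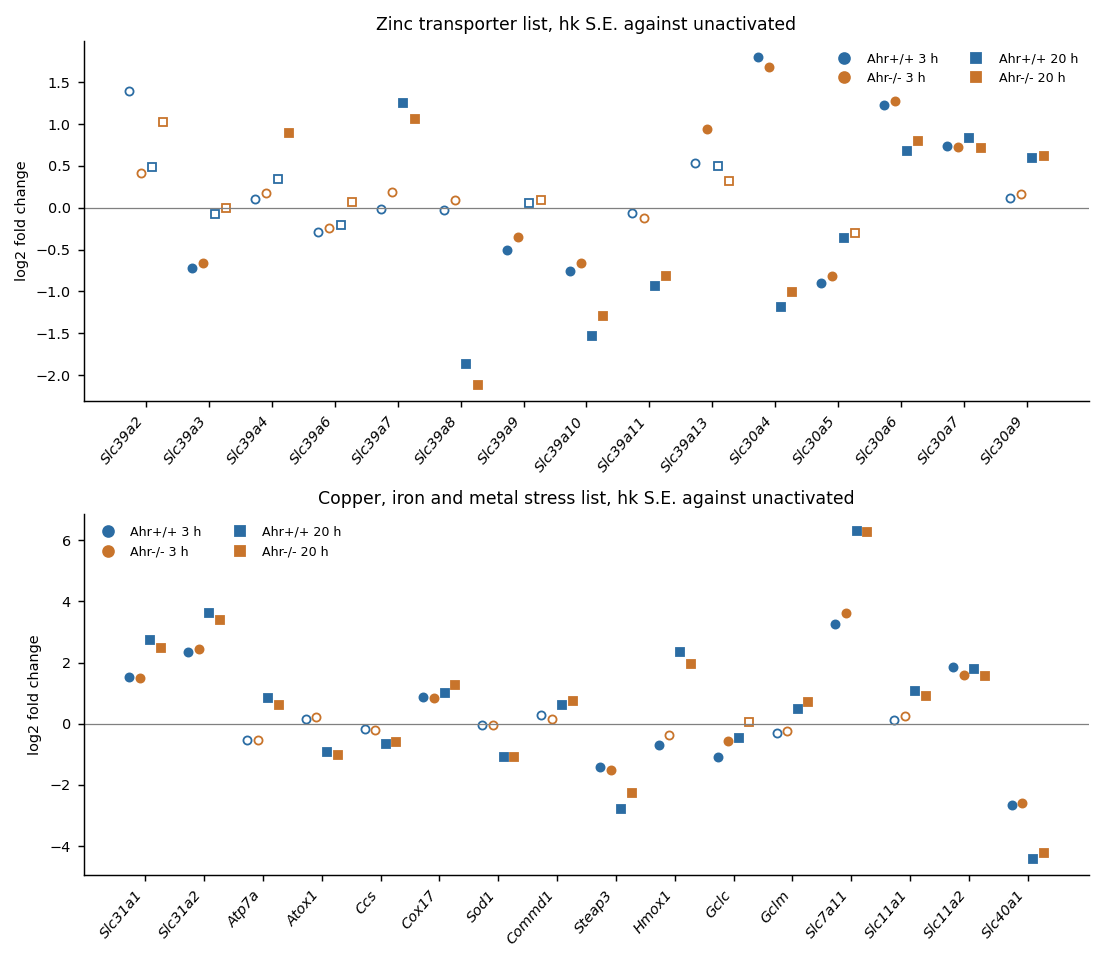
Log2 fold change (y axes) of the tested genes of the zinc list (upper panel) and of the copper, iron and metal stress list (lower panel) in hk S.E.-activated against unactivated BMMs, for Ahr+/+ (blue) and Ahr-/- (orange) at 3 h (circles) and 20 h (squares), filled where called. Tmem163 and Steap4, with groups at 0 counts, are left out, and Slc7a11 at 6.30 and Slc40a1 at -4.42 mark the ends of the range.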

How the data were processed

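Poly(A) RNA of 64 BMM cultures was sequenced as stranded paired-end libraries on 1 flow cell of a HiSeq instrument. The authors converted base calls (bcl2fastq 2.19.0.316), aligned to mm10 (HISAT2 2.1.0) and deposited HTSeq 0.9.1 counts per gene (intersection-strict, reverse strand, GENCODE M22), in which reads with more than 1 alignment were left out (12.4% to 15.8% of a library). A table of log2-like variance-stabilised values, which the authors made with DESeq2 and deposited, was used as an alternative. Of the counted fragments 74.9% to 80.8% fell on genes (median 24499165 per library), the 5 lines that name no gene were left out, and 0 columns belonged to other series.

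Counts were tested with edgeR 4.0.16 in R 4.3.3 (filterByExpr, minimum count 10; TMM; 16 group means over 64 libraries; quasi-likelihood test; Benjamini-Hochberg over 14537 genes; adjusted p below 0.01, the threshold of the study) in 32 comparisons, without a block for replicates. The test was also run on simulated counts of independent libraries for a single comparison. These held no replicate effect, so they do not check the test against the split of the Ahr-/- replicates. Symbols were matched for 55094 of 55487 identifiers. Alternatives were RLE size factors, no filter, DESeq2 1.42.0, limma 3.58.1, other thresholds and fits of the compared groups alone. Further ones were a covariate for the library identifier series, replicate blocks and leaving out each library. Leaving out pairs of Ahr-/- replicates and plain total counts were added after seeing the data. The genes, lists and tests were chosen with earlier results of these data known. The 6 genes are named in every comparison, from each metal list at most 5 called genes with the largest fold change, and for each of the 6 the 3 genes with the most similar group means. Promoter windows are from RefSeq (GRCm38.p6; 5 of the 6 genes had one) and were searched on both strands. Counts of a gene measure its share of the library, and intervals do not cover variation between experiments, as this was 1 experiment.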

Additional observations from a re-analysis of the deposited data

Results flagged for a closer look

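The response of all 6 genes to hk S.E. differed between 3 h and 20 h in both genotypes by the interaction test (edgeR, Benjamini-Hochberg adjusted p below 0.01). In Ahr+/+ BMMs the log2 fold change at 20 h minus that at 3 h was -1.48 for Mt1, -2.70 for Mt2, 0.72 for Mtf1, -1.62 for Slc30a1, -1.08 for Slc39a1 and -1.41 for Slc39a14. In Ahr-/- BMMs the differences were -1.49, -2.62, 0.50, -1.73, -1.17 and -1.56 in the same order.

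Of 112 sets of 4 libraries tested for a library far from the other 3, 4 had one, where chance gives about 1 in 20. Mt1 was lowest in Ahr+/+ BMMs with BaP at 3 h in replicate 1 (87.6 CPM, the others at 104 to 106). Mtf1 was lowest in unactivated Ahr-/- BMMs at 3 h in replicate 3 (24.1 CPM, the others at 26.3 to 26.6). The number of Mt2 counts per Mt1 count was lowest in replicate 4 of Ahr+/+ BMMs with BaP at 3 h (1.04, the others at 1.22 to 1.24) and in replicate 2 of unactivated Ahr-/- BMMs at 3 h (0.234, the others at 0.366 to 0.383).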

How the results depend on the processing

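The counts of called values among the 6 genes were 17 of 24 for activation, 12 of 24 for time, 12 of 48 for interactions and 0 for genotype and ligands, and stayed within 1.5 times of these under the alternatives tried, with the exception of genotype. There 1 of 24 was called at an adjusted p below 0.05, 1 with Ahr-/- replicates 1 and 2 left out, 4 with replicates 3 and 4 left out, and 0 to 1 when single libraries were left out (1 without replicate 4 of activated Ahr+/+ BMMs at 20 h). With plain total counts the log2 fold change turned for Mtf1 at 3 h (-0.50 in Ahr+/+, -0.43 in Ahr-/- BMMs) and for Slc39a1 in Ahr+/+ BMMs at 20 h (-0.35), and, without a call under either scaling, for Mt1 at 3 h (-0.53 and -0.20); the other turns among the 6 genes were of values close to 0 under both scalings. By this scaling the genotype calls over all genes split into 49 higher and 92 lower in unactivated BMMs at 3 h instead of 35 and 141, into 241 and 200 instead of 177 and 234 in activated BMMs at 3 h, into 37 and 53 instead of 32 and 70 and into 1206 and 742 instead of 736 and 1075 at 20 h, those of activation by genotype at 20 h into 440 and 265 instead of 303 and 338, and those of BaP in Ahr+/+ BMMs at 20 h into 11 and 26 instead of 14 and 20.

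The difference of Mtf1 at 3 h in Ahr+/+ BMMs was called with RLE size factors (adjusted p = 0.00347), DESeq2 (0.00397) and limma (0.00368), and the call in Ahr-/- BMMs was lost without the filter (0.0179), in the fit of the compared groups alone (0.0119) and without unactivated replicate 3 (0.0134). The fit of the compared groups alone also called Slc30a1 at 20 h in Ahr+/+ BMMs (-0.27, adjusted p = 0.00847) and lost it in Ahr-/- BMMs (-0.90, 0.023). It further lost the rise of Mtf1 from 3 h to 20 h in activated Ahr-/- BMMs (0.25, adjusted p = 0.0302).

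Libraries of the same replicate number deviated together in most pairs but not in all. Of the pairs within a time point, 45 of 48 in Ahr-/- and 32 of 48 in Ahr+/+ BMMs correlated above 0.1 (lowest -0.248 and -0.0937). All 3 exceptions in Ahr-/- BMMs involved 1 library, unactivated replicate 1 at 3 h, and at 20 h all 24 Ahr-/- pairs were above 0.1 (0.131 to 0.645), while 3 of 24 Ahr+/+ pairs were not. Libraries correlated best with their own number, out of 4, in 84 of 112 (Ahr-/-) and 96 of 112 (Ahr+/+) comparisons. Libraries of the same number thus shared part of their deviation. No label ties a number to a mouse, so the main fit has no block and leaves this out, and blocks were used as an alternative. With a replicate block within genotype, the interaction of activation and genotype of Slc30a1 at 20 h was called (-0.66, adjusted p = 0.00349), as it was with the block as a random effect (-0.68, adjusted p = 0.00455), and no other call among the 6 genes changed, the genotype differences being tested with the random effect only. The replicate block within genotype raised the calls over all genes from 641 to 1505 in the interaction of activation and genotype at 20 h. It raised them from 34 to 271 for BaP in Ahr+/+ BMMs at 20 h. Depth bears on Mtf1 most, whose counting error was more than 50% of the spread between libraries in 12 of 16 groups.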
